A study of Arabidopsis thaliana with 12 samples.

Results

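The transposable element (TE) genes described here lie in pericentromeric windows of the Arabidopsis thaliana chromosomes. They were read in met1-3 young shoots while being close to silent in ddcc and Col-0 mature leaves. They were chosen by their values. A TE gene had to lie in a window of locus numbers around a centromere, to exceed 3 on the deposited log2 scale in the lowest of the 3 met1-3 libraries, and to average under 2 in ddcc and in Col-0 leaves or to be absent from the leaf lists. This gave 548 of the 1473 TE genes listed in the windows and of the 1764 listed in all, out of 24775 genes. Their levels in the 3 groups are therefore a description, and no test of these levels was made.

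RNA-seq was compared among 9 libraries, 3 per group. The met1-3 plants are homozygous for a T-DNA insertion in MET1 and were taken as young shoots at 2 weeks. The ddcc plants carry drm1, drm2, cmt2 and cmt3 mutations together and were taken as mature leaves at 5 weeks, as were the wild-type Col-0 plants. All lines are in the Columbia background, each genotype is represented by a single line, and the number of plants in a library was not given in the sources used here. No 2-week-old wild type was among the files used, so the met1-3 genotype and the younger age cannot be told apart in any comparison with leaves. The met1-3 values were also normalized separately from the leaf values, so no fold change between them is given.

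MET1 copies CG methylation onto newly replicated DNA, whereas DRM1, DRM2, CMT2 and CMT3 methylate cytosines outside CG sites. Both kinds of methylation are dense over the TEs that surround Arabidopsis centromeres, where they accompany H3K9 methylation and transcriptional silencing. TE genes are the annotated genes inside TEs, most of them open reading frames or degraded remnants of transposase, gag and polymerase genes. In the reference annotation 1762 of the 1764 TE genes are pseudogenes.

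The main families differ in how they move. Gypsy elements are LTR retrotransposons, copied through an RNA intermediate, and they crowd around the centromeres. En-Spm elements, also called CACTA elements, and MuDR elements, the Mutator-like group, are DNA transposons that move by excision with a transposase. The sequences around the annotated starts are shown for the highest TE gene of each of these families, because CG sites there are what MET1 maintains. Each line runs 5′ to 3′ on the strand of the gene, from 250 bases before to 50 bases after the annotated start, with CG sites in capitals. They were read from the RefSeq assembly TAIR10.1. The Gypsy gene AT4G06485 has 5 CG sites at chr4:3095875-3096174 (minus strand), and the En-Spm gene AT2G06720 has 10 at chr2:2681240-2681539 (minus strand). AT1G42410, labelled MuDR, has 18 at chr1:15868857-15869156 (plus strand). Its group of sequence relatives, described below, also holds AT2G13160, labelled En-Spm, so its family is uncertain. The MuDR gene AT3G33575, at chr3:14051917-14052216 (plus strand), is added as the start with the most CG sites of all 548, with 28.
AT4G06485: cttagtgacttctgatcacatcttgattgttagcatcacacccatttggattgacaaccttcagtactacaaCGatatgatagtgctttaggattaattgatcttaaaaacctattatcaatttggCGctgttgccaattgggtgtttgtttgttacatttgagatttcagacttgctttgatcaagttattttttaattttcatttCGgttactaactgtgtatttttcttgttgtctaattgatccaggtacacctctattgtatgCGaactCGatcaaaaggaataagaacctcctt
AT2G06720: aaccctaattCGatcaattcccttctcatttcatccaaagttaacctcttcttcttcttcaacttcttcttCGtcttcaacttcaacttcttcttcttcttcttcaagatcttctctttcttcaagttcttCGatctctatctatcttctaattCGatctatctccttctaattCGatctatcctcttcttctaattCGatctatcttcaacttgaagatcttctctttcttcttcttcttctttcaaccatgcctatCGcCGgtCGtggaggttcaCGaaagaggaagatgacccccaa
AT1G42410: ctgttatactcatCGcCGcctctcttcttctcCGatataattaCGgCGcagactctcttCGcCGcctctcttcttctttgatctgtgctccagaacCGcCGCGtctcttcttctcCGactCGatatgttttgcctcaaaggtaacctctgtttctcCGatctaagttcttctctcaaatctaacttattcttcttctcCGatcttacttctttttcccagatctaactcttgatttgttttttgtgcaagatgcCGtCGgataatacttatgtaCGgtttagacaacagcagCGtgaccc
AT3G33575: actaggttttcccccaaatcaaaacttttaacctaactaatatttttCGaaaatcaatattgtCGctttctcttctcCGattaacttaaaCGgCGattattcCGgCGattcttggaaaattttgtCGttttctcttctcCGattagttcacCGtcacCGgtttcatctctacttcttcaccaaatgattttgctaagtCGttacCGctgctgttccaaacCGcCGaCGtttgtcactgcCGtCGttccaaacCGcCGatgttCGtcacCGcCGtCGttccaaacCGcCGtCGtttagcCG

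The 4 starts differ widely in CG content although all 4 genes were read in met1-3 and near silent in leaves. The En-Spm start is rich in runs of cttctt with CG sites scattered among them, and in AT3G33575 many of the CG sites lie in the last part of the window. The start with the most CG sites did not belong to a highly read gene. AT3G33575 had 25, 17 and 20 reads in the 3 met1-3 libraries, against 1, 1 and 0 in ddcc and 0 in each Col-0 library. Per kb of exon and 1000000 reads on nuclear genes (RPKM) it stood at 1.25 ± 0.201 in met1-3, rank 494 of the 548, and AT4G06485 with its 5 sites stood at 41.6 ± 2.13 (SD, n = 3).

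Over all 548 TE genes the met1-3 libraries held 77536, 62229 and 76952 reads. On the 285 of them listed in the leaf files, the ddcc libraries held 319, 354 and 260 reads and the Col-0 libraries held 102, 141 and 118. The other 263 were not listed there and add nothing to these sums. The groups did not overlap, as the choice of the genes requires. In met1-3 the 548 TE genes took 1.54% ± 0.0831 of the reads on nuclear genes and 52.7% ± 0.879 of the reads on TE genes (SD, n = 3). The 285 listed in leaves took 1.39% ± 0.201 of TE gene reads in ddcc and 1.40% ± 0.168 in Col-0 (SD, n = 3 each). The low leaf shares follow from the choice of the genes.

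The median TE gene of the set had 63, 50.5 and 68.5 reads in the 3 met1-3 libraries. On the deposited scale, log2 of reads divided by a size factor plus 1, the medians were 6.12, 6.12 and 5.90, a mean of 6.05 ± 0.125 (SD, n = 3). The range was wide, from 6 to 1326 reads in a library, and 503 of the 548 had 10 or more reads in every met1-3 library. Reads were concentrated on few genes. The 55 highest TE genes of each library held 43.8% ± 0.246 of the reads of the set (SD, n = 3).

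**Figure D1:**
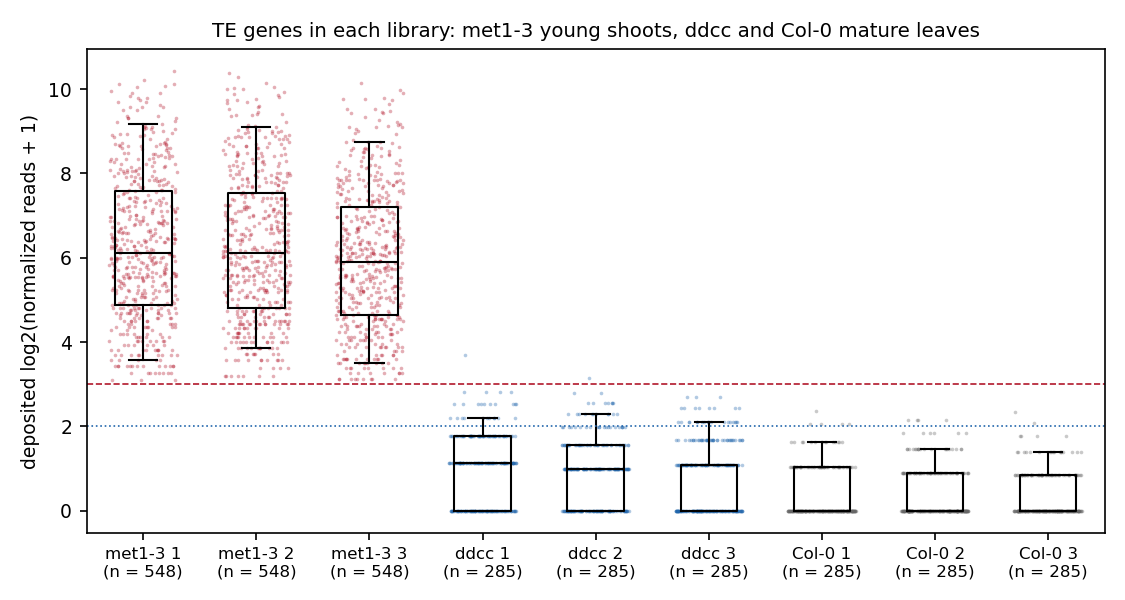
Deposited log2 value (log2 of normalized reads plus 1) of each TE gene on only in met1-3, in each of the 9 libraries. Points are TE genes, boxes give the quartiles and median, whiskers the 5th and 95th percentiles. The dashed line at 3 and the dotted line at 2 are the limits used in the choice. All 548 lie above 3 in the met1-3 libraries, with medians of 6.12, 6.12 and 5.90, while the 285 listed in the leaf files reach at most 3.70 in a ddcc and 2.38 in a Col-0 library, since the limit of 2 applied to group means, and met1-3 and leaf values were scaled separately.

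In leaves 263 of the 548 TE genes were not listed, and 285 were. No listed gene exceeded 10 reads in a ddcc library or 5 reads in a Col-0 library. Of the 285, 100 had 0 reads in all 3 Col-0 libraries and 9 had 0 reads in all 3 ddcc libraries. A count of 0 allows up to 3 reads in a library, which is 0.661 to 0.760 reads per 1000000 nuclear reads in ddcc and 0.596 to 0.696 in Col-0, for counting error only. Summed over 3 libraries, ddcc had more reads at 200 of the 285 and Col-0 had more at 38, at a median of 3 reads in ddcc and 1 in Col-0. Both sums were bounded by the choice of the genes, and no difference between ddcc and Col-0 is read from them.

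Differential expression between ddcc and Col-0 leaves was tested with limma over all genes. With an adjusted p under 0.01 and an absolute log2 difference over 1, 861 of 17005 genes were called (5.06%), and none of the 548 TE genes had enough reads to enter that test. Without the filter on low values 984 of 23151 genes were called (4.25%). All 285 listed TE genes then entered and none was called at these limits. Of them, 38 had an unadjusted p under 0.05 and 10 an adjusted p under 0.05 (limma). The choice of genes used these same leaf values, so nothing is read from these counts.

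Genes on either side of the limits had close values. AT2G11070, AT2G13250 and AT4G06637 lay just inside the met1-3 limit, with a lowest log2 value of 3.11, which was 7 reads in replicate 1 for each. AT2G07650, AT3G33115 and AT3G42927 lay just outside it at 2.98. At the ddcc limit, AT5G35145 with a mean of 1.95 was taken, as were AT3G30827 and AT3G43523 at 1.94, while AT5G27947 just over 2, AT3G30830 at 2.06 and AT1G42050 at 2.06 were not. AT1G42050, a Gypsy gene whose lowest met1-3 value was 10.72, would otherwise have stood at the top of the set. At the Col-0 limit the nearest genes taken were AT1G34530 and AT2G11300, at 1.53, and AT2G13870, at 1.46. The single TE gene left out by Col-0 alone was AT3G43828, at 3.84.

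The 20 highest TE genes by mean deposited value comprised 11 En-Spm, 7 Gypsy and 1 MuDR genes and 1 gene on no listed element, AT2G06180, whose closest labelled relative in sequence is a Gypsy gene. They had 480 to 1326 reads in a met1-3 library, at most 6 reads in a ddcc library and at most 4 in a Col-0 library. All 20 were listed in the leaf files, and 19 of them consist of 1 exon.

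AT4G06485 (chr4:3090240-3095924, minus strand, Gypsy) had the highest mean. It had 1092, 924 and 1326 reads in met1-3, against 1, 5 and 1 in ddcc and 0, 3 and 2 in Col-0. AT5G32053 (chr5:11800200-11802224, minus strand, Gypsy) followed with 1262, 976 and 1009 reads in met1-3, 4, 2 and 1 in ddcc and 2, 0 and 2 in Col-0. Both are Gypsy genes of the same group of relatives, yet their order depends on length. AT5G32053 stood at 115 ± 18.6 RPKM (SD, n = 3), rank 7 of the 548, and AT4G06485 ranked 47 on this scale.

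AT2G06180 (chr2:2419319-2422450, minus strand) had 1020, 723 and 1168 reads in met1-3, against 0, 5 and 0 in ddcc and 2, 2 and 0 in Col-0. AT2G09187 (chr2:3639603-3646073, minus strand, Gypsy) had 1028, 784 and 822 reads in met1-3, 4, 1 and 2 in ddcc and 0, 1 and 0 in Col-0. They were the highest TE genes of the chromosome 2 window, and the highest of the chromosome 3 window were the Gypsy genes AT3G33072 and AT3G30620. AT3G33072 had 991, 756 and 799 reads in met1-3, 2 in each ddcc library and 2, 0 and 1 in Col-0. AT3G30620, with 8 exons, had 885, 750 and 712 reads in met1-3, 0, 0 and 3 in ddcc and 1, 1 and 0 in Col-0. The other leading Gypsy genes were AT4G06506, with 971, 826 and 636 met1-3 reads, and AT5G33389, with 875, 694 and 807.

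The En-Spm genes were led by AT2G06720 (chr2:2678827-2681289, minus strand), with 838, 765 and 1031 reads in met1-3, 4, 1 and 1 in ddcc and 1, 0 and 1 in Col-0. AT2G13870 (chr2:5819376-5821584, plus strand) had 819, 682 and 1115 reads in met1-3, 0, 1 and 1 in ddcc and 3, 2 and 1 in Col-0. Their levels per kb did not differ beyond the spread of the libraries, at 76.0 ± 4.91 and 83.4 ± 10.2 RPKM (SD, n = 3). On chromosome 1 the highest TE genes were AT1G39110 (En-Spm), with 808, 610 and 1017 met1-3 reads, and AT1G42410 (chr1:15869107-15871453, plus strand). The latter was the highest gene labelled MuDR, though it shares a group of relatives with AT2G13160, labelled En-Spm. AT1G42410 had 702, 603 and 863 reads in met1-3, against 2, 1 and 0 in ddcc and 1, 1 and 0 in Col-0. On chromosome 5, AT5G28165 (En-Spm) had 919, 624 and 857 met1-3 reads over a long gene, or 23.9 ± 2.45 RPKM (SD, n = 3), the lowest per kb of the 20.

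**Figure D2:**
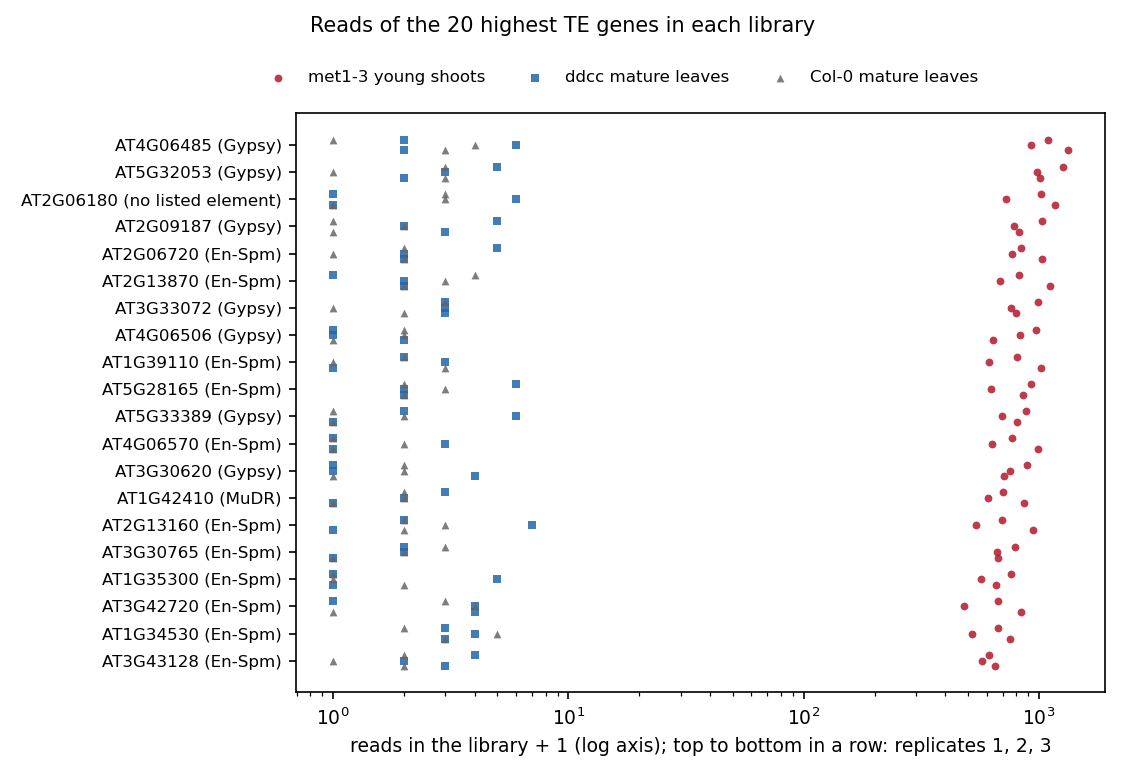
Reads plus 1 (log axis) of the 20 TE genes with the highest mean deposited met1-3 value, in each library. Circles are met1-3 young shoots, squares ddcc mature leaves and triangles Col-0 mature leaves, with replicates 1 to 3 from top to bottom within a row. The met1-3 points lie between 480 and 1326 reads, and no leaf point exceeds 6 reads.

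The remaining 7 En-Spm genes of the 20 ran from AT4G06570, with 765, 633 and 991 reads in met1-3, to AT3G43128, with 609, 572 and 648. AT2G13160, AT3G30765, AT1G35300, AT3G42720 and AT1G34530 lay between them. Per kb of exon, short genes that were lower in reads moved up. The highest level per kb was that of AT5G32035, a Gypsy gene neighbouring AT5G32053, at 164 ± 5.82 RPKM, and the Gypsy gene AT1G42040 did not differ from it beyond the spread, at 164 ± 15.4 (SD, n = 3). These were named after their values were seen. The MuDR gene AT2G14330, with 553, 415 and 614 reads in met1-3, followed at 157 ± 7.82 RPKM (SD, n = 3).

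Families contributed unequally. Element labels were taken from the study's lists of TEs, which hold elements expressed in Col-0 or raised in mutants, and 247 TE genes of the windows, 234 of them under the met1-3 limit, lay on none. Of 301 unlabelled TE genes in all, 258 were given the label of their closest labelled relative (at least 200 aligned bases), a rule that returned the listed family for 92.8% of 1411 labelled genes. The labels are thus not independent of expression. Some also disagree with the groups of relatives described below. The 2 Helitron genes of the set and the MuDR genes AT4G03900, AT4G03910 and AT2G11500 lie in groups mostly labelled En-Spm. The En-Spm genes AT3G32226, AT1G36200 and AT2G13000 lie in a group mostly labelled Gypsy. Counts and levels by family carry this uncertainty. The added labels are used only for the shares of each family in the set, their plot and, where stated, a count of a sequence run.

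By the listed labels the 548 were 235 Gypsy, 128 En-Spm, 127 MuDR, 21 LINE, 9 hAT, 6 Copia, 4 Harbinger and 2 Helitron genes, with 5 on other elements and 11 on none. En-Spm had the largest share of its TE genes in the set. With labels by likeness added, 131 of 211 En-Spm TE genes of the windows belonged to it (62.1%), against 128 of 301 MuDR (42.5%), 240 of 599 Gypsy (40.1%) and 22 of 97 LINE genes (22.7%). Without the added labels the En-Spm share was 65.6%. Copia, the other large group of LTR retrotransposons, was at the opposite end, with 6 of 127 (4.72%). Most Copia TE genes on in met1-3 were also over a leaf limit, in ddcc, in Col-0 or in both. Another 28 of the 127 exceeded the met1-3 limit but also a leaf limit, so that 34 were on in met1-3 (26.8%). Shares were counted over TE genes that share elements and ancestry, and differences between families were not tested.

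**Figure D3:**
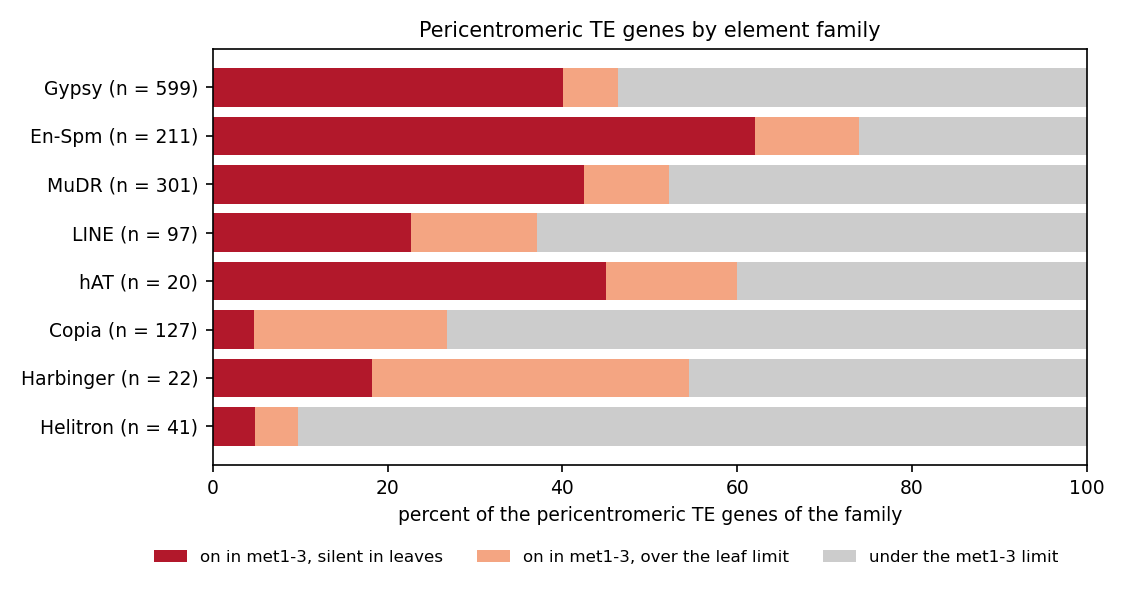
Pericentromeric TE genes of each element family, as percent of the family, divided into those on in met1-3 and silent in leaves, those on in met1-3 and over a leaf limit, and those under the met1-3 limit. Labels combine the listed elements with sequence likeness. The silent-in-leaves share is 62.1% in En-Spm and 4.72% in Copia.

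The families also differed in level. The median En-Spm TE gene of the set stood at 12.6 ± 0.424 RPKM in met1-3, the median Gypsy gene at 7.44 ± 0.341, the median MuDR gene at 4.12 ± 0.167 and the median LINE gene at 1.74 ± 0.299 (SD over libraries, n = 3). The order En-Spm, Gypsy, MuDR, LINE held in each of the 3 libraries. Gypsy genes took 44.1% ± 2.26 of the reads of the set, En-Spm genes 38.1% ± 1.12 and MuDR genes 12.5% ± 0.882 (SD, n = 3). LINE elements move by target-primed reverse transcription, and the highest of them, AT3G43575, had 111, 73 and 95 reads in met1-3 and was not listed in leaves. AT5G35416, the next LINE gene, had 66, 60 and 69.

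Small families held few genes, none in the 20 highest. The highest hAT gene, of a DNA transposon group, was AT2G06760 with 180, 135 and 137 reads in met1-3, followed by AT4G04316 with 69, 73 and 91. The highest Copia gene, AT2G09830, had 106, 70 and 169 reads in met1-3, against 1, 0 and 0 in ddcc and 0, 0 and 2 in Col-0. The next, AT5G34965, had 30, 15 and 29. Among the 5 genes on other or unassigned elements AT3G44042 had 79, 75 and 122 reads and AT5G38365 had 75, 50 and 45. Among the genes on no listed element AT4G06555, with 247, 183 and 272 reads, came after AT2G06180.

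All 5 windows contributed. The 548 made up 32.7% of the TE genes listed in the window of chromosome 1 (70 of 214), 36.1% on chromosome 2 (118 of 327), 37.6% on chromosome 3 (128 of 340), 40.4% on chromosome 4 (107 of 265) and 38.2% on chromosome 5 (125 of 327). They lay on the plus strand in 270 cases and on the minus strand in 278. Neighbouring genes of the set were a median of 22892 bp apart from start to start, and 313 of the 548 had another within 10 kb. The same was not computed for all TE genes of the windows, so no clustering particular to the set is read from this. Some share an element: 537 lay on 432 listed elements, and 195 of them were on the 90 elements that held 2 or more, up to 4 on 1 element. Such genes are not independent observations.

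The windows reach from gene-poor DNA next to the centromeres to more gene-rich flanks. The number of protein-coding genes centred within 100 kb on either side was taken as a measure of this. Of the TE genes of the windows with 0 to 4 such neighbours, 130 of 320 belonged to the set (40.6%). The share was 44.4% with 5 to 9 neighbours (131 of 295), 38.9% with 10 to 19 (176 of 452) and 27.3% with 20 or more (111 of 406). TE genes that were on in met1-3 but over a leaf limit ran the other way, at 3.13%, 6.78%, 10.4% and 19.7%. The 2 together, all TE genes on in met1-3, varied less, at 43.8%, 51.2%, 49.3% and 47.0%. Toward gene-rich flanks, a growing part of the TE genes on in met1-3 was thus also over a leaf limit. Of the 157 over a leaf limit, 101 exceeded it only in ddcc, 1 only in Col-0 and 55 in both.

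The family make-up of the set changed along the same gradient. Gypsy genes were 68.5% of the set where 0 to 4 coding genes were near and 13.5% where 20 or more were near, while MuDR genes were 5.38% and 48.6%. En-Spm genes were most frequent in between, at 28.4% with 10 to 19 neighbours. The median number of coding neighbours was 6 for Gypsy, 10 for En-Spm and 17 for MuDR genes of the set. It was 10 for all 548, against 20 for the 157 TE genes on in met1-3 and over a leaf limit and 12 for the 768 under the met1-3 limit. The part of family and of surroundings in the shares was not separated, and these gradients were not tested. The family make-up of all TE genes in each class of surroundings was not computed. The change in family make-up is therefore not read as particular to the set.

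**Figure D4:**
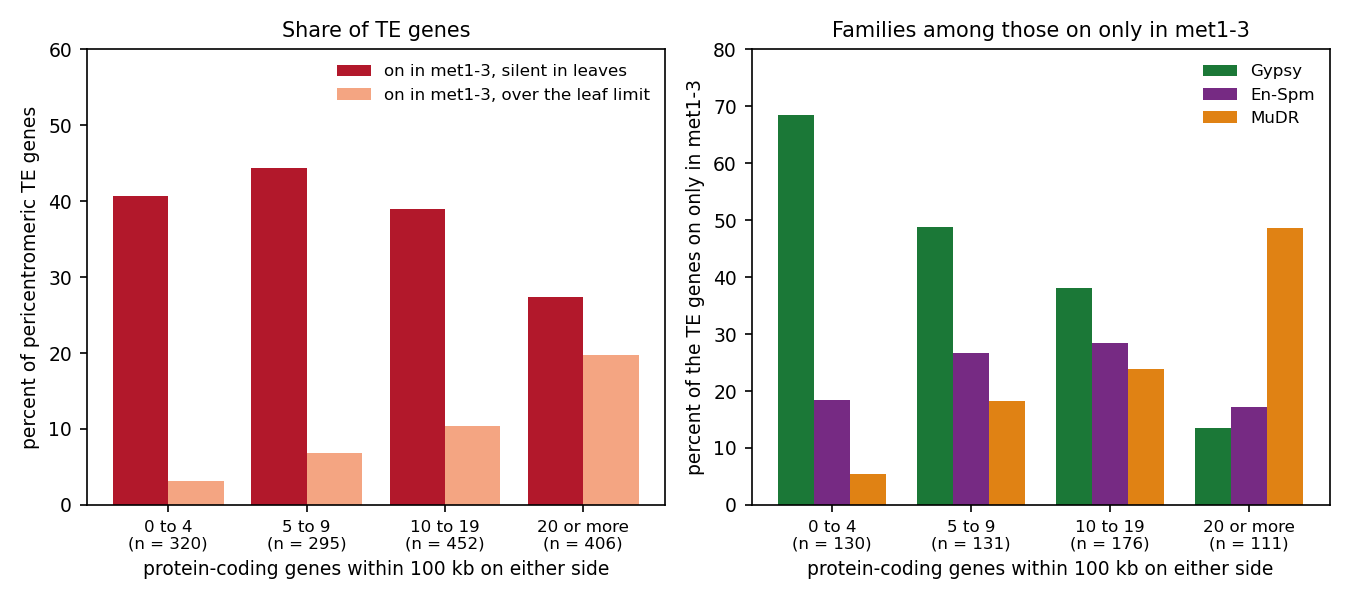
Left, percent of the pericentromeric TE genes that were on in met1-3 and silent in leaves, and on in met1-3 and over a leaf limit, by the number of protein-coding genes within 100 kb on either side. Right, percent of Gypsy, En-Spm and MuDR genes among those on only in met1-3, in the same classes. The silent-in-leaves share is 40.6% in the most gene-poor class and 27.3% in the most gene-rich. Within the set Gypsy gives way to MuDR, and the family make-up of all TE genes in these classes was not computed.

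CG sites around the start were somewhat more frequent in the set than among the other TE genes of the windows. The window of 300 bases held a median of 9 CG sites in the 548, 8 in the 157 over a leaf limit and 7 in the 768 under the met1-3 limit, beside 6 in 27443 protein-coding genes. Windows with 10 or more CG sites made up 47.8% of the 548, 40.8% of the 157 and 35.7% of the 768. TE genes on chromosome arms that were on in met1-3 and silent in leaves had more, with a median of 12.5 sites and 61.4% of 44 windows with 10 or more, so a high CG count was not particular to the pericentromeric genes. The medians differed in the DNA transposons and were equal in Gypsy genes. They were 11 in En-Spm genes of the set and 7 in those under the met1-3 limit, 10 and 7.5 in MuDR genes, and 8 in both Gypsy classes. In genes on in met1-3 and over a leaf limit the medians were 10 in En-Spm, 10 in MuDR and 8 in Gypsy genes. These were close to the medians of the set, so the difference was not particular to it. Belonging to the set also became more frequent with CG sites, at 33.5% of the TE genes with 0 to 4 sites, 32.3% with 5 to 9, 38.5% with 10 to 14, 47.4% with 15 to 19 and 58.6% with 20 or more. For all TE genes on in met1-3 the shares in the same classes were 48.7%, 40.1%, 48.5%, 60.4% and 65.7%.

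Starts without CG sites also occurred. The windows of AT1G42130 and AT5G28524 (En-Spm) and of AT4G05588 (Gypsy) held 0 CG sites, and these genes had 27, 18 and 30, then 9, 14 and 15, then 28, 15 and 37 reads in the 3 met1-3 libraries. None of the 3 was listed in leaves. Over En-Spm genes of the set, RPKM was higher with more CG sites in the window (Spearman's rho 0.37, n = 128), and over Gypsy genes there was little relation (rho 0.03, n = 235). The relation with the GC content of the gene was stronger in both, with rho 0.52 over En-Spm and 0.35 over Gypsy genes, so it was not particular to CG sites at the start. Over MuDR genes both were weak, with rho 0.09 for CG sites and -0.10 for GC content (n = 127). RPKM was lower in longer genes, with rho -0.32 over En-Spm, -0.42 over Gypsy and -0.43 over MuDR genes. These are correlations across genes read in the same 3 libraries and are given as a description.

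En-Spm elements end in inverted repeats that open with CACTA. A longer form of this end, CACTACAA, was searched for on either strand in the 2000 bases before each annotated start, as a mark of a nearby element end. It was found for 59 of 128 En-Spm genes of the set (46.1%), 11 of 235 Gypsy genes (4.68%) and 15 of 127 MuDR genes (11.8%). Of these MuDR genes, AT4G03900 and AT2G11500 belong to a group of relatives mostly labelled En-Spm, so the MuDR share depends on the labels. Among En-Spm TE genes on in met1-3 and over a leaf limit it was found for 10 of 25 (40%), among those under the met1-3 limit for 10 of 42 (23.8%), and among those on chromosome arms that were on in met1-3 and silent in leaves for 4 of 7 (57.1%). A share like that of the set was thus also seen in other En-Spm genes on in met1-3. The match occurred before 171 of all 1473 TE genes of the windows (11.6%) and 2049 of 27440 protein-coding genes (7.47%). The 5 highest En-Spm genes with a match are shown in order to compare what follows it, each as 60 bases on the strand of the gene with the match in capitals.
AT5G28165: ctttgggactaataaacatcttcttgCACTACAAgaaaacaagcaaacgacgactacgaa
AT2G13160: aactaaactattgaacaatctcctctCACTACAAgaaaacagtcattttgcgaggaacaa
AT3G30765: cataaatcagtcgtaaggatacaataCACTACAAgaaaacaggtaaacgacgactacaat
AT1G34530: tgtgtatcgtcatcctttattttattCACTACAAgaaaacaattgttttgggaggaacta
AT2G06740: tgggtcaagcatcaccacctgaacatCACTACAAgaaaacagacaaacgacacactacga

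They lie at chr5:10139866-10139925 (plus), chr2:5440501-5440560 (plus), chr3:12437660-12437719 (plus), chr1:12626431-12626490 (plus) and chr2:2685637-2685696 (minus) of TAIR10.1. All 5 matches run in the direction of the gene and continue alike, so that 15 bases are identical, cactacaagaaaaca, while the bases before them differ. The match stood 526 bases before the start in both AT5G28165 and AT3G30765, and 539 bases before it in AT2G06740. In AT2G13160 and AT1G34530 it stood 1353 and 1418 bases before. AT5G28165, AT3G30765 and AT2G06740 belong to the same group of relatives, so the 5 stretches are not independent sequences. The run of 15 was found before 22 of 128 En-Spm genes of the set (17.2%) and 3 of the 420 others of the set (0.714%). Among the other En-Spm TE genes of the windows, with labels by likeness added, it was found before 7 of 80 (8.75%). It was found before 36 of all 1473 TE genes of the windows (2.44%) and 12 of 27440 protein-coding genes (0.0437%). The run is longer than the motif it contains, and it was chosen from these 5 sequences.

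Genes with the match were not the higher ones. En-Spm genes of the set with CACTACAA had a median of 9.83 RPKM (upper quartile 23.3, n = 59), and those without it had 15.4 (upper quartile 27.1, n = 69).

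Many of the TE genes are members of sequence groups. TE genes were joined where they were at least 90% identical over at least 80% of the shorter gene, which left 223 of the 548 without a relative. The largest group, mainly Gypsy, held 150 TE genes, of which 76 belonged to the set, 9 were on in met1-3 and over a leaf limit, 59 were under the met1-3 limit and 6 lay on chromosome arms. The largest En-Spm group held 46, of which 35 belonged to the set, 4 were over a leaf limit, 4 were under the met1-3 limit and 3 lay on arms. In another En-Spm group 9 of 10 belonged to the set and the last lay on an arm, whereas a Gypsy group of 15 had 0 members in it and all 15 under the limit. Even within a group levels spread widely, from 3.32 to 10.22 on the deposited log2 scale among the 76 in the largest group.

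Close relatives could differ strongly in level. In the pair shown here and the next, 1 gene is of the set and the other is under the met1-3 limit. Which of them is higher thus follows from the choice. The pair shown was picked for its large difference among pairs aligned over nearly their full length. AT5G32053 and the Gypsy gene AT4G08080 (chr4:4964226-4966272, plus strand) are 95.1% identical over 2018 aligned bases. AT5G32053 had 1262, 976 and 1009 reads in met1-3, and AT4G08080 had 12, 10 and 8. Of their 150-base stretches, 99.6% and 90.9% occur only once in the genome, so most of their reads could be told apart. The starts of both are shown because they are less alike than the genes, with 236 of 314 aligned positions identical (75.2%) and 13 CG sites in each (capitals). They lie at chr5:11802175-11802474 (minus strand) and chr4:4963976-4964275 (plus strand).
AT5G32053: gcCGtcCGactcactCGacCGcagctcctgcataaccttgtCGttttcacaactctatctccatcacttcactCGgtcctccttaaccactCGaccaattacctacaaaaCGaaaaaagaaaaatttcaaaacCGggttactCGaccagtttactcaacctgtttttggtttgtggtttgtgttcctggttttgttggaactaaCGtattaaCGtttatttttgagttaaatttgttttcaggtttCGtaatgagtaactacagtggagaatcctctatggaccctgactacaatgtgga
AT4G08080: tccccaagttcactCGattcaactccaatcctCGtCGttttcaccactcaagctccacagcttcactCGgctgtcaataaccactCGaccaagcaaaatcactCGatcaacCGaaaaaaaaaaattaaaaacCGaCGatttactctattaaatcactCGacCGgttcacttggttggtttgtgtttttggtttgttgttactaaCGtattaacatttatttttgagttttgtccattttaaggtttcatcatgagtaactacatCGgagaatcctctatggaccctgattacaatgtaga

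A like contrast was seen in the En-Spm gene AT5G28923, with 209, 156 and 232 reads in met1-3, and AT3G32677, with 4, 1 and 2. They are 96.1% identical over 2280 aligned bases, and their start windows are 84.9% identical, with 14 CG sites in each. Among 5 nearly full-length pairs of a gene of the set and a TE gene under the met1-3 limit, start windows were 69.2% to 95.4% identical (median 75.5%), and among 14 pairs within the set they were 57.8% to 98.3% identical (median 81.6%). The 2 ranges overlap. Not all of the 5 pairs differed strongly in level, since AT5G34838 and AT1G42690 differed by 0.79 and AT5G32495 and AT4G06704 by 0.68 on the log2 scale.

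Most of the genes could be told apart from the rest of the genome. All 150-base stretches were unique in the genome for 332 of the 548, and under 50% of them were unique for 21 (3.83%). Of the 20 highest, AT2G13870, AT2G13160 and AT3G30765 had under 90% unique stretches. Reads that fit several places were removed by the authors through a mapping quality limit, which can understate repetitive genes.

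The 3 met1-3 libraries did not agree equally well on these genes. Replicate 3 had the lowest deposited value at 344 of the 548, against 103 for replicate 1 and 101 for replicate 2. Replicate 3 minus the mean of replicates 1 and 2 had a median of -0.27 on the log2 scale over the 548, and it was negative at 418 (76.3%). Over the 8339 nuclear genes other than TE genes whose mean lay in the middle range of the set, 4.78 to 7.40, the median was 0.01 and 48.6% were negative. The TE genes of the set in that same range had a median of -0.26, with 74.1% negative. Scaling by all nuclear reads moved both by about the same amount, to -0.06 over the 548 and 0.23 over the other genes. Relative to these other genes the 548 were lower in replicate 3 by 0.28 and 0.29 on the 2 scales. The 157 TE genes on in met1-3 and over a leaf limit were also lower on the deposited scale, with a median of -0.18 and 115 of 157 negative, so the difference was not confined to the set.

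The difference was larger in some families than in others. On the deposited scale the median was -0.44 over Gypsy genes (191 of 235 negative), -0.36 over LINE genes (16 of 21), -0.28 over En-Spm genes (110 of 128) and -0.07 over MuDR genes (74 of 127). Scaled by all nuclear reads these medians became -0.22, -0.15, -0.07 and 0.14 in the same order, so the sign for MuDR genes depended on the scaling. Relative to the 8339 other genes, Gypsy genes were lower by 0.45 on both scales and MuDR genes by 0.08 and 0.09. Genes of like GC content and level, on the deposited scale, had medians of -0.05 for Gypsy, -0.01 for LINE, -0.01 for En-Spm and 0.04 for MuDR. Genes of the silencing machinery were mostly highest in replicate 3. Of 25 such genes listed in met1-3, 21 were highest and 2 lowest there per 1000000 nuclear reads. With all nuclear reads as scaling, 26.8% of the 8339 other genes lay below the mean of replicates 1 and 2 in replicate 3. That is another measure, and the share of all genes highest in replicate 3 was not computed. No difference of the silencing genes from other genes is therefore read from these counts. Any part of the silencing genes in the levels of the TE genes was not tested. Without replicate 3 the median deposited level of the 548 was 6.12 and their share of TE gene reads 53.2%.

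**Figure D5:**
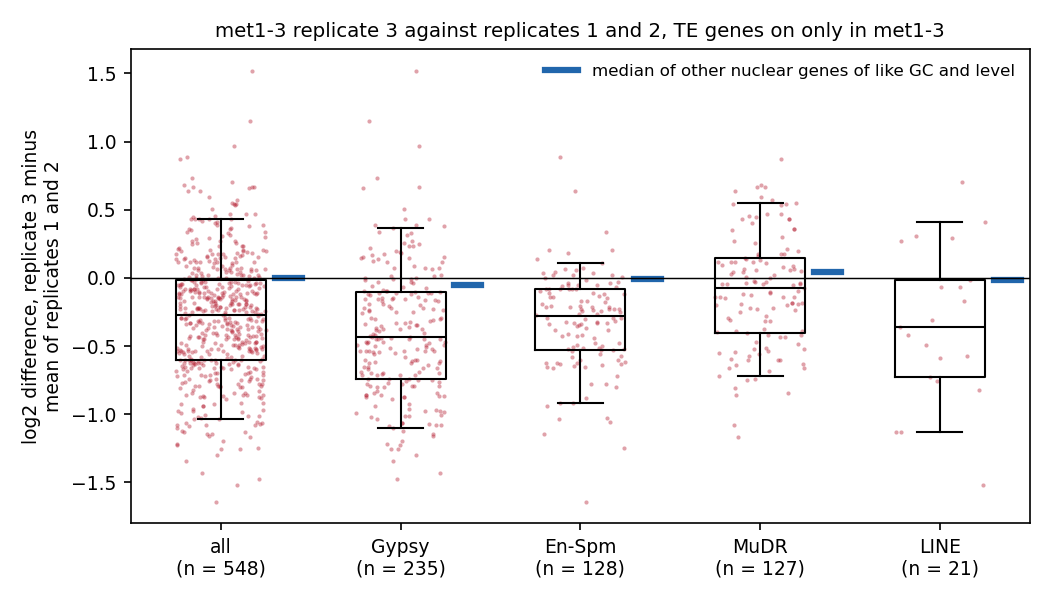
Log2 difference between met1-3 replicate 3 and the mean of replicates 1 and 2, for all 548 TE genes and for 4 families. Points are TE genes, boxes give quartiles and median, whiskers the 5th and 95th percentiles, and blue bars mark the median of other nuclear genes of like GC content and level. Gypsy genes centre on -0.44 and MuDR genes on -0.07, while the blue bars lie between -0.05 and 0.04. Scaled by all nuclear reads the MuDR median becomes 0.14 and the Gypsy median -0.22.

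Single genes ranged from near-identical to widely spread replicates. The smallest standard deviations of the log2 values over the 3 libraries were 0.01 for AT2G05000 (MuDR, with 43, 35 and 55 reads), 0.03 for AT4G06570 and 0.03 for AT2G07780 (MuDR, with 44, 34 and 54 reads). The largest were 0.98 for AT5G32125 (Gypsy, with 13, 28 and 11 reads), 0.97 for AT3G30670 (En-Spm, with 25, 27 and 11 reads) and 0.96 for AT2G11060 (Gypsy, with 18, 8 and 51 reads). These 3 were low in reads, but wide spread was also seen at higher counts, as in AT3G42057 with 187, 190 and 98 reads (0.85) and AT3G33067 with 472, 373 and 241 reads (0.75), both named after their values were seen. AT5G32125 had only 41.8% unique stretches.

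The mutated genes were read in their own mutants and so check the labels only in part. MET1 had 292, 260 and 447 reads in met1-3, against 87, 94 and 56 in ddcc and 40, 62 and 70 in Col-0. Transcript on an insertion allele can still be counted. DRM2 had 18, 34 and 9 reads in ddcc, against 45, 79 and 78 in Col-0, a log2 difference of -1.56 that was not called (limma, adjusted p = 0.017). CMT2 had 145, 183 and 175 reads in ddcc, against 111, 163 and 132 in Col-0, and CMT3 had 31, 32 and 35 in ddcc, against 46, 54 and 52 in Col-0. DRM1 had at most 1 read in a leaf library, so of the 4 genes none checks the ddcc label by a clear loss of reads. Of 26 genes that maintain or remove silencing, among them the methyltransferases, the remodeller DDM1 and NRPD1 and NRPE1 of Pol IV and Pol V, 21 could be tested between ddcc and Col-0 leaves, and 1 was called. This was ROS1, a DNA demethylase gene whose expression depends on methylation of its promoter. It had 0, 1 and 14 reads in met1-3, outside this test, and 49, 13 and 37 reads in ddcc, against 320, 468 and 529 in Col-0, with a ddcc minus Col-0 log2 difference of -3.58 (limma, adjusted p = 0.000417). These p-values measure the spread between libraries, which may be technical.

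TE genes can be active in pollen and seed tissue of the wild type, so markers of these were examined. The 4 pollen markers and the 3 seed storage and oil body markers were not listed in met1-3, which is not a measured 0. The seed markers were not listed in leaves either. The pollen markers listed in leaves, ANX1 and PRK2, summed to 0.661 to 0.760 reads per 1000000 nuclear reads (RPM) in ddcc and 0.397 to 0.696 in Col-0. Of 5 flower organ genes 2 were at 0, with a sum of 1.65 to 4.06 RPM in met1-3, against 4.98 to 5.32 in ddcc and 3.95 to 8.34 in Col-0. The 5 leaf photosynthesis markers summed to 20933 to 22306 RPM in met1-3, 18183 to 18517 in ddcc and 8631 to 9458 in Col-0. Green tissue markers were thus abundant in all groups, and lowest in Col-0. Of 4 shoot meristem genes CLV3 and WUS were not listed in any group. STM and KNAT1 summed to 6.86 to 9.79 RPM in met1-3, 24.6 to 29.3 in ddcc and 16.0 to 30.8 in Col-0. Of 4 root markers, WER had 0, 5 and 4 reads and CASP1 had 0, 0 and 2 in the met1-3 libraries, a sum of 0 to 1.27 RPM. The other root markers were not listed in met1-3, and no root marker was listed in leaves. Bulk RNA cannot tell fewer expressing cells from less RNA per cell.

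Library depth was similar. Reads on nuclear genes numbered 3938275 to 5310477 in met1-3, 3947316 to 4537495 in ddcc and 4308136 to 5034164 in Col-0, and plastid genes took 56.7% to 65.8% of all counted reads. The groups overlapped in depth.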

How the data were processed

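RNA from 9 libraries was analysed. Following the study's methods, the authors mapped reads to TAIR10 with Hisat2, kept confident alignments with SAMtools and counted genes with HTSeq. The submitters' processing notes name Trimmomatic, HISAT2 and DESeq2, and the strand setting was not given in the sources used here. As deposited, each value is a log2 of normalized reads plus 1, and whole reads were recovered with a largest deviation of 8.2e-08 of a read. RPKM and RPM were computed from these reads. Another 3 files, labelled met1-3 mature leaves, repeat Col-0 reads and were not used. Positions, exons and sequence came from RefSeq TAIR10.1 through locus tags, which matched for all 1764 TE genes. Leaves were compared with limma 3.58.1 (R 4.3.3) on genes reaching 10 reads, scaled to median library size, in 3 libraries and 15 reads in all, with Benjamini-Hochberg adjustment. The fitting was tested on simulated data. Relatives came from BLAST 2.17.0. The genes, lists and tests were chosen with earlier results of these data known. Named genes were the 20 highest, the 2 highest per window and family, those nearest each limit and those at the extremes of replicate spread and CG count. Alternatives comprised other limits, scalings, pseudocounts and filters, limma-voom, a replicate block and leaving out each library.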

Additional observations from a re-analysis of the deposited data

How the results depend on the processing

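The set held 548 TE genes, and 538 were chosen with reads scaled by all nuclear reads, 451 with a met1-3 limit of 4 and 434 with leaf means under 1, all of them among the 548. Asking for genes listed in the leaf files left 285, by construction. Without each library in turn the number ran from 541 to 576. The median deposited level of 6.05 became 2.61 as log2 of RPM (per reads on genes) plus 1 and 2.87 as log2 of RPKM plus 1, which are other scales, and it ran from 6.01 to 6.12 without each met1-3 library. The share of TE gene reads ran from 52.4% to 53.2% without each met1-3 library and was 1.54% with all nuclear reads as the denominator. Scaling by all nuclear reads, chosen after seeing the data, gave a median replicate spread of 0.25 in place of 0.29 and a difference of replicate 3 of -0.06 in place of -0.27. Between ddcc and Col-0 leaves 861 genes were called, 663 of them higher and 198 lower in ddcc. The count was 3634 at an adjusted p under 0.05 with no fold change minimum, and it ran from 554 (without ddcc replicate 2) to 958 when a leaf library was left out. With total reads as the only scaling 1227 were called, 440 higher and 787 lower in ddcc (35.9% higher), as the median of all genes moved to -0.35. None of the 548 was called in any of these fits, and in all but the unfiltered one none was tested. The replicate block gave 1017 calls, and the correlations of same-numbered libraries were 0.21, 0.00085 and 0.04, so the numbers were not taken as pairs. Genes under 10 reads in a met1-3 library are limited by counting error.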
